A study of Mus musculus with 12 samples.

Results

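The CCN family is a group of secreted matricellular proteins, of which mouse mammary libraries were read here for Cyr61 (CCN1), Ctgf (CCN2), Nov (CCN3), Wisp1 (CCN4) and Wisp2 (CCN5). The members were the genes listed under these symbols, 5 of the 27998 genes of the count matrices, and each symbol was listed once. The remaining family gene, Wisp3 (CCN6), was listed as well, but over the 12 libraries summed it stayed at or below 0.220 CPM in each fibroblast subset (CPM, unique molecular identifiers or UMIs of the gene scaled to 1000000 UMIs of the summed cells) and had too few counts to test.

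CCN proteins sit in the extracellular matrix, bind integrins, heparan sulphate proteoglycans and LRP receptors, and tune how cells answer growth factors rather than building the matrix themselves. CYR61 and CTGF are classical targets of the YAP and TAZ coactivators with their TEAD partners, and both respond to serum, stretch and TGF-beta. WISP1 and WISP2 were named as genes induced by Wnt1, WISP2 lacks the C-terminal cystine knot domain that the other members carry, and NOV is often described as a counterweight to CTGF.

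The study profiled single cells of the fourth mammary gland of C57BL/6J female mice aged 43 weeks by droplet sequencing, with 1 library for each of 12 groups. Apart from the Intact group, every animal received 4-vinylcyclohexene diepoxide (VCD) at 160 mg/kg daily for 15 days, a chemical that depletes ovarian follicles and leaves the rest of the ovary in place. The hormone arms were estradiol (E2, 1 µg per animal daily for 1 week) and E2 with progesterone (P4, 1 mg per animal daily). The question addressed here was where in the fibroblasts each CCN gene is read and how it differs between the hormone arms.

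Of the VCD groups, 9 formed a full layout of hormone (none, E2, E2 with P4) against polybrominated diphenyl ether flame retardants (PBDE: none, low, high). Without PBDE these were VCD_Vehicle, VCD_E2 and VCD_E2_P4. With low PBDE (0.05, 0.0028 and 0.0063 mg/kg daily of the 3 congeners for 20 weeks) they were VCD_Low_PBDE, VCD_Low_E2 and VCD_Low_E2_P4. With high PBDE (1, 0.056 and 0.126 mg/kg daily for 1 week) they were VCD_High_PBDE, VCD_High_PBDE_E2 and VCD_High_PBDE_E2_P4, so that dose and duration of PBDE cannot be told apart. VCD_E2_ICI received E2 with ICI (5 mg per animal), an estrogen receptor antagonist, and VCD_Vehicle_NormEnv was a vehicle group with possible PBDE exposure from its surroundings. How many animals went into a library is not given in the sources used here.

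The libraries held 2497 to 10006 barcodes and 41737881 to 109224969 UMIs each. After the filters 46257 of 58620 barcodes remained, of which 31412 were fibroblasts, with Col1a1, Dcn and Pdgfra among their markers. Fibroblasts were split by marker genes, none of them a CCN gene, into 4 subsets called the Dpp4 gate (11218 cells), the Fabp4 gate (5529), the Tnc gate (3022) and the Gdf10 gate (3239), and 8404 cells fitted no gate. Of the 20 gate markers, 19 were highest in their own gate, the exception being Col15a1. Of all fibroblasts, 2950 lay within 0.1 of the cut between gates, and the Tnc gate held 112 to 480 cells per library. The 6 adipocyte markers summed to at most 1.45 CPM in the Fabp4 gate of any layout library, and large cells were removed at dissociation. Some barcodes were shared: 740 of 57499 distinct barcodes occurred in 2 or more libraries, and each pair among Intact, VCD_Vehicle, VCD_E2, VCD_E2_P4 and VCD_Low_PBDE shared at least 95, against at most 84 for other pairs.

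Cyr61, which encodes an integrin-binding immediate early protein, lies at chr3:145646976-145649981 on the minus strand of GRCm38 and has 5 exons. Its promoter is shown because Cyr61 moved with stress and early-response genes in the results given further on. It is the only one of the 5 members with an entry among the 32851 RefSeq promoters searched (GRCm38.p6), and spans chr3:145649936-145650235 on the minus strand, from 250 bases before the start site to 50 after. Capitals mark, in order, the TEAD core GGAATG (read here on the other strand), the heat shock element TTCNNGAA, the CRE core TGACGT (other strand) and the TATA box TATAAA.

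Cyr61 promoter: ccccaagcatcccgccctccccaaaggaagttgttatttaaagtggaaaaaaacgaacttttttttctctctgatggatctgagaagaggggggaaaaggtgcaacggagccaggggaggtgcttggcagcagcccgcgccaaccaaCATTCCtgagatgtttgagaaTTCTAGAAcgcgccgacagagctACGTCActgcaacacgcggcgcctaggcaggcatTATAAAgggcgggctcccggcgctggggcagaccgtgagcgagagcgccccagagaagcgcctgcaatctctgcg

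These matches began 103, 82, 59 and 25 bases before the start site, and none of them overlapped another. Of all promoters of this length, 14.7% held the TEAD core, 8.52% the heat shock element, 7.51% the CRE core and 8.32% the TATA box, the last searched on 1 strand and the others on both. No match was present for AP-1 (TGANTCA, in 7.81% of promoters), TCF (CTTTGA, in 16.0%), the estrogen response element (GGTCANNNTGACC, in 0.07%) or the CArG box (in 1.63%). A match describes letters in this window, not a bound site.

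Over the 12 libraries, Cyr61 was read in all fibroblast gates, at 1282 CPM in the Fabp4 gate, 793 in the Dpp4 gate, 671 in the Tnc gate and 341 in the Gdf10 gate. Cells gated as immune gave 16.4 CPM of Cyr61. The 99 endothelial cells gave 933 CPM and the 155 luminal epithelial cells 108. By library, the Fabp4 gate averaged 1305 ± 258 CPM (SD, n = 12) and was above the Dpp4 gate (838 ± 300) in 12 of 12 libraries, while the Dpp4 gate was above the Tnc gate (742 ± 392) in 6 of 12, so these last neighbours did not differ beyond their spread. The Gdf10 gate was lowest at 344 ± 57.5, and lay below the Tnc gate in 10 of 12 libraries.

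Ctgf, the profibrotic partner of TGF-beta signalling, lies at chr10:24595442-24598683 on the plus strand and overlaps the antisense gene Gm15270. Whether the counting used strand is not given in the sources used here. It showed another order: 97.0 CPM in the Tnc gate, 45.5 in the Gdf10 gate, 21.4 in the Dpp4 gate and 12.3 in the Fabp4 gate, with 1.19 in immune cells and 61.2 in endothelial cells. By library the Tnc gate averaged 90.8 ± 29.5 (SD, n = 12) and exceeded the Gdf10 gate (46.1 ± 31.5) in 11 of 12 libraries. In cells thinned to 5000 UMIs, a Ctgf molecule was found in 19.9% of Tnc-gated cells (30.4% before thinning) and in 0.501% of immune cells (1.23% before thinning). The median depth was 11383 UMIs in Tnc-gated cells and 7662 in immune cells. Cyr61 and Ctgf, often read as a pair of YAP reporters, therefore had opposite orders across the Fabp4 and Tnc gates.

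Nov, which encodes the growth-restraining member CCN3 (chr15:54745702-54754039, plus strand), was read mainly in the Dpp4 gate. It reached 286 CPM in the Dpp4 gate, against 17.2 in the Tnc gate, 15.2 in the Gdf10 gate, 7.99 in the Fabp4 gate and 2.58 in immune cells. The ungated fibroblasts gave 60.6 CPM and the 99 endothelial cells 59.8 (88 UMIs). The Dpp4 gate was the highest in 12 of 12 libraries, at 299.9 ± 78.4 (SD, n = 12), and its lowest library (200.2) stood above the highest value in any other gate. Among the thinned cells, 60.6% of Dpp4-gated cells carried a Nov molecule (83.2% before thinning), against 1.15% of immune cells (2.62% before thinning). The expression was spread over the cells: the top 1% of Dpp4-gated cells held 7.57% of the Nov UMIs there.

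Wisp1 (chr15:66891320-66923201, plus strand), a Wnt-induced member that promotes fibroblast growth, was highest in the Tnc gate. It was read at 30.2 CPM there, at 1.88 in the Fabp4 gate, 1.86 in the Gdf10 gate and 0.387 in the Dpp4 gate. Immune cells gave 2.14 with the 12 libraries summed, and 58 of their 153 UMIs came from VCD_Low_E2 (5.59 CPM, against 0 to 2.63 in the other libraries). By library the Tnc gate averaged 26.0 ± 26.6 (SD, n = 12) and was the highest gate in 12 of 12 libraries. Its SD exceeded its mean.

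Wisp2 (chr2:163820861-163833146, plus strand), the short member without the cystine knot, had no leading gate. It was read at 97.5 CPM in the Gdf10 gate, 85.3 in the Tnc gate, 72.3 in the Fabp4 gate and 51.5 in the Dpp4 gate, with 206 in the ungated fibroblasts and 3.08 in immune cells. The highest gate was the Tnc gate in 5 libraries, the Gdf10 gate in 4, the Dpp4 gate in 2 and the Fabp4 gate in 1. How far it was spread over cells differed between gates: the top 1% of cells held 51.1% of the Wisp2 UMIs in the Tnc gate, 33.2% in the Dpp4 gate, 29.2% in the Gdf10 gate and 11.7% in the Fabp4 gate. In cells thinned to 5000 UMIs, a Wisp2 molecule was found in 10.2% of Tnc-gated, 11.2% of Dpp4-gated, 19.3% of Gdf10-gated and 22.2% of Fabp4-gated cells (15.8, 21.2, 27.2 and 36.8% before thinning), and in 1.71% of immune cells (3.16% before thinning).

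**Figure D1:**
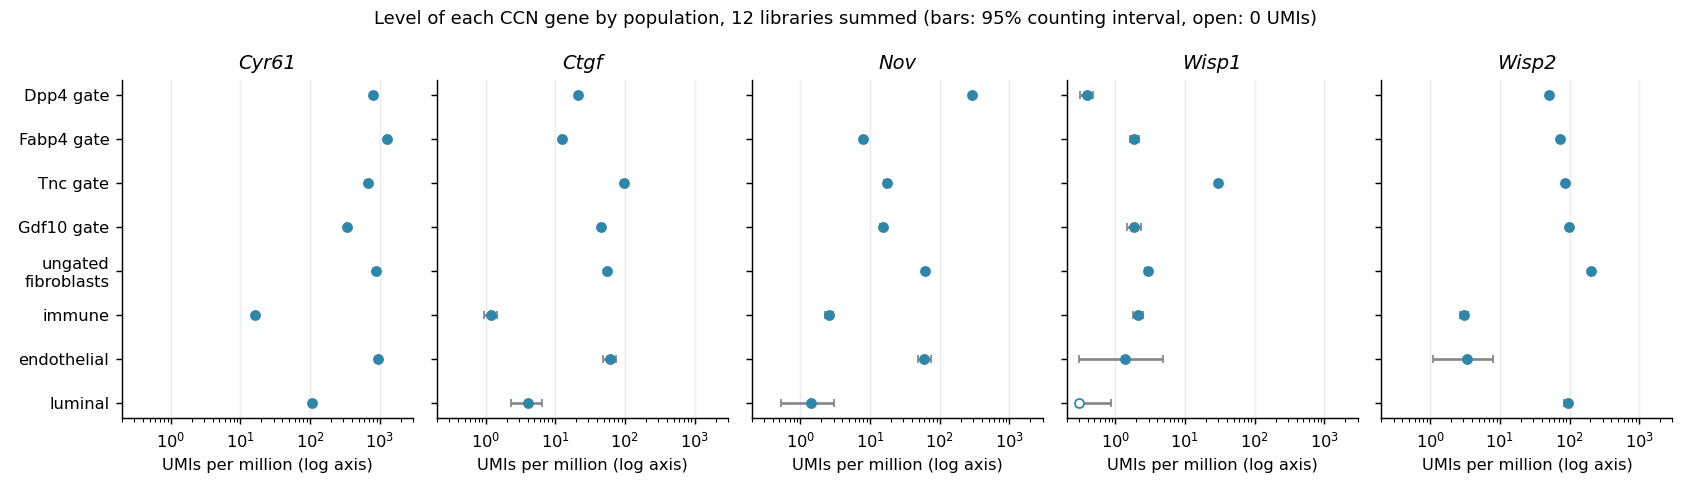
CPM (log axis) of each CCN gene with the 12 libraries summed, in 4 fibroblast gates, ungated fibroblasts and 3 other cell types; bars are 95% counting intervals and an open point stands for 0 UMIs. Nov peaks in the Dpp4 gate (286), Ctgf and Wisp1 in the Tnc gate (97.0 and 30.2), and Cyr61 in the Fabp4 gate (1282).

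Each gate was compared with the mean of the other 3 within libraries, using edgeR's quasi-likelihood test with Benjamini-Hochberg adjustment over all genes tested. The cells of these gates differ widely: 69.3% of 13439 genes passed the test in the Dpp4 gate, 55.3% in the Fabp4 gate, 56.7% in the Tnc gate and 45.4% in the Gdf10 gate. Against this background 13 of the 20 member tests passed, so that the size of the differences says more than their number. Each gate is also part of the mean set against the others, so the 4 tests of a gene are not independent. A gene high in 1 gate is thereby pushed towards lower in the others. Nov was 24.0-fold higher in the Dpp4 gate (log2 4.58 ± 0.11 SE, adjusted p = 2.01e-30), and lower in the Fabp4 gate (log2 -2.48), the Gdf10 gate (-1.12, lost with the marker-pair gate at adjusted p = 0.108) and the Tnc gate (-0.98). Wisp1 was 19.2-fold higher in the Tnc gate (log2 4.27 ± 0.24, adjusted p = 1.59e-18) and lower in the Dpp4 gate (log2 -3.38). Ctgf was 4.00-fold higher in the Tnc gate (log2 2.00 ± 0.17, adjusted p = 6.02e-13), higher in the Gdf10 gate (log2 0.69), and lower in the Dpp4 gate (-0.80) and the Fabp4 gate (-1.89). With the marker-pair gate the Ctgf difference in the Gdf10 gate turned to log2 -0.57 and that in the Dpp4 gate was lost (log2 -0.17, adjusted p = 0.358). The Gdf10 call was also lost (adjusted p = 0.107) on only the 5 libraries that the paper describes, Intact, VCD_Vehicle, VCD_E2, VCD_E2_P4 and VCD_E2_ICI. Cyr61 was 2.19-fold higher in the Fabp4 gate (log2 1.13 ± 0.15, adjusted p = 1.78e-08) and lower in the Gdf10 gate (log2 -1.33). Its rise in the Dpp4 gate (log2 0.34 ± 0.15, adjusted p = 0.0464) was lost when any of VCD_E2, VCD_E2_P4, VCD_Low_E2, VCD_High_PBDE_E2 or VCD_High_PBDE_E2_P4 was left out (adjusted p 0.0848 to 0.162), and in 4 of 11 other alternatives (0.0529 to 0.234). Wisp2 passed in none of the 4 gates by edgeR or DESeq2, with log2 differences from -0.59 to 0.51. It had 1 unadjusted p under 0.05, in the Dpp4 gate, where 9604 of 13439 genes did. It did pass in the Dpp4 gate, as lower, without VCD_E2_P4, VCD_Low_E2_P4 or VCD_High_PBDE_E2_P4 (adjusted p 0.00517 to 0.0450), and its call changed there in 6 of 11 other alternatives (0.000108 to 0.0441). It was lower in 5 of these and higher in the sixth, the marker-pair gate (log2 1.09). It also passed as higher in the Fabp4 gate at a margin of 1.0 (0.0239) and in the Gdf10 gate at a margin of 0.25 (0.0195), and as lower in the Tnc gate with the marker-pair gate (0.00404).

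**Figure D2:**
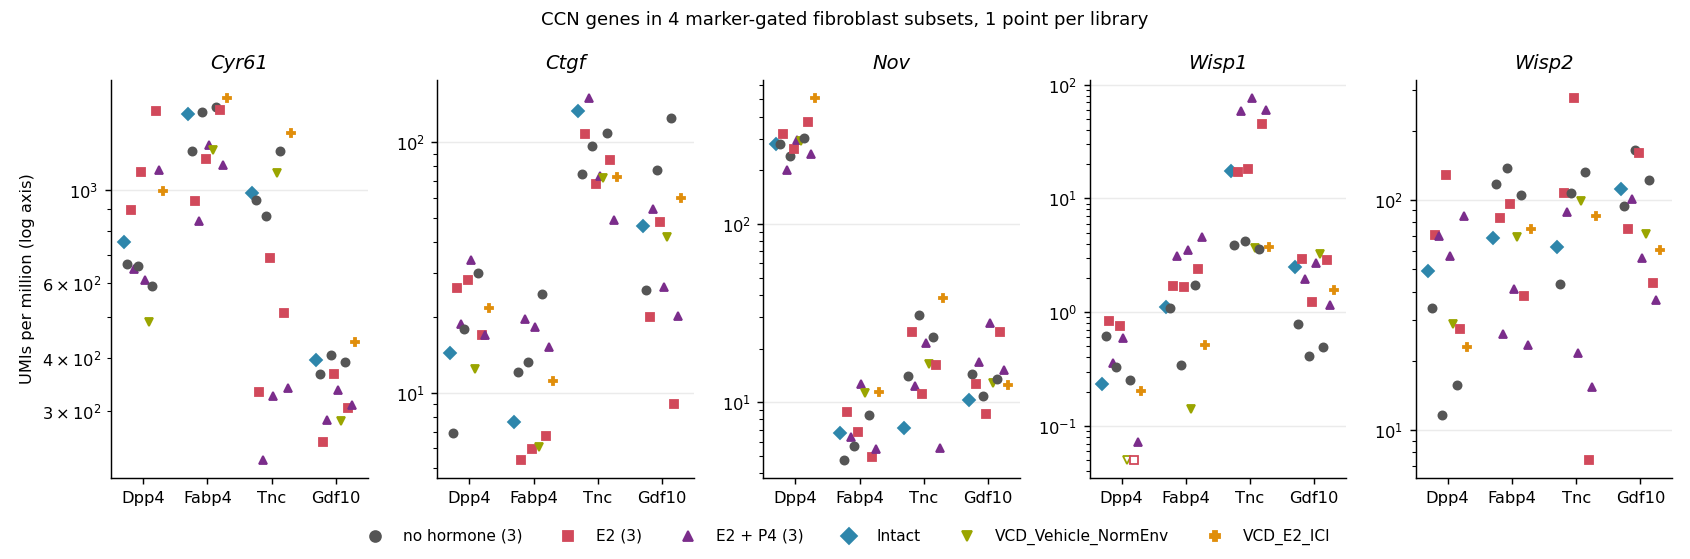
CPM (log axis, with its own range for each gene) of the 5 CCN genes in each fibroblast gate, 1 point per library, coloured by hormone arm; open points stand for 0 UMIs. The Dpp4 gate stands apart for Nov in all 12 libraries. For Wisp1 the Tnc gate is the highest in each, narrowly in VCD_Vehicle_NormEnv (3.69 against 3.26 in the Gdf10 gate). In the Tnc gate VCD_E2_ICI and the VCD libraries without hormone lie lowest for Wisp1 (3.62 to 4.26).

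Wisp1 gave the largest hormone difference of the family, in the Tnc gate. Without hormone it was read at 3.87, 4.26 and 3.62 CPM in VCD_Vehicle, VCD_Low_PBDE and VCD_High_PBDE. With E2 it was read at 17.0, 17.9 and 45.4 in VCD_E2, VCD_Low_E2 and VCD_High_PBDE_E2. With E2 and P4 it was read at 58.7, 76.4 and 59.7 in VCD_E2_P4, VCD_Low_E2_P4 and VCD_High_PBDE_E2_P4. The 3 arms did not overlap, and the order none, E2, E2 with P4 held at each PBDE level. E2 with or without P4 against no hormone gave a 9.20-fold rise (log2 3.20 ± 0.34, adjusted p = 8.96e-05), in a gate where 31.1% of 11159 genes passed. The rise passed in each alternative run, without any 1 library (log2 2.99 to 3.39) and with a term for the 2 kinds of library name suffix (log2 3.27, adjusted p = 0.00155).

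The share of cells with a Wisp1 molecule was also higher with hormone. Among Tnc-gated cells thinned to 5000 UMIs, a Wisp1 molecule was present in 1.69, 2.89 and 2.44% without hormone, in 8.23, 8.87 and 19.4% with E2, and in 15.9, 24.2 and 20.2% with E2 and P4. The hormone libraries all lay above those without, but unlike the levels, the shares with E2 and with E2 and P4 overlapped, at VCD_High_PBDE_E2 (19.4%) and VCD_E2_P4 (15.9%). Before thinning the ranges were 2.92 to 3.85% without hormone and 16.6 to 56.2% with it. Immune cells gave 0.877% (1.38% before thinning), at a median depth of 7662 UMIs against 11383 in Tnc-gated cells.

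Adding P4 to E2 raised Wisp1 in the Tnc gate a further 2.57-fold (log2 1.36 ± 0.26, adjusted p = 0.0229), where 3.78% of genes passed. This call was lost without VCD_E2, VCD_E2_P4, VCD_Low_E2 or VCD_Low_E2_P4 (adjusted p 0.122 to 0.160, log2 1.03 to 1.92 over all single libraries left out) and with the marker-pair gate (0.0714). In the Fabp4 gate Wisp1 was read at 1.09, 0.343 and 1.73 CPM without hormone, at 1.69, 1.68 and 2.41 with E2, and at 3.13, 3.52 and 4.55 with E2 and P4. Immune cells gave 1.88, 2.08 and 2.63 CPM without hormone and 1.88, 5.59 and 1.12 with E2. Of these, only VCD_High_PBDE_E2 (1.12) lay below its Fabp4 gate. With E2 and P4 immune cells gave 2.21, 0.804 and 0 CPM. In VCD_Low_E2_P4 and VCD_High_PBDE_E2_P4 the 95% counting intervals of the gate (2.59 to 4.68 and 2.78 to 7.03) lay above those of immune cells (0.295 to 1.75 and 0 to 1.08). In VCD_E2_P4 they overlapped (2.13 to 4.45 and 1.42 to 3.30). The rise of Wisp1 with hormone in the Fabp4 gate was 2.59-fold (log2 1.37 ± 0.35, adjusted p = 0.0347, against 12.1% of genes passing). It passed in no fit that left out 1 of the 9 libraries (adjusted p 0.0524 to 0.125), nor in 6 of 13 other alternatives (0.0593 to 0.383). In the Gdf10 gate the log2 difference was 1.95 ± 0.55 with adjusted p = 0.0679. The layout libraries without hormone held 3, 2 and 1 Wisp1 UMIs there. Only VCD_E2 (11), VCD_E2_P4 (10) and VCD_Low_E2_P4 (14) reached the 10 counts of the filter, so the gene was tested through the hormone arms alone. Outside the layout, VCD_Vehicle_NormEnv, without hormone, gave 3.26 CPM (12 UMIs), the highest of the 12 libraries in this gate. In the Dpp4 gate, too, only hormone libraries of the layout reached 10 UMIs: VCD_E2 (15), VCD_Low_E2 (15) and VCD_Low_E2_P4 (16). Wisp1 did not pass there (log2 0.098, adjusted p = 0.926 by edgeR).

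Cyr61 moved the other way in the same gate. In the Tnc gate it was read at 945, 864 and 1235 CPM without hormone. It was read at 333, 690.3 and 509 with E2, and at 229, 324 and 339 with E2 and P4. Every hormone library lay below every library without hormone. The difference was 2.81-fold (log2 -1.49 ± 0.15, adjusted p = 7.49e-05), passed in each alternative run, and ranged from -1.75 to -1.31 over the libraries left out. P4 on top of E2 gave a further log2 -0.78 ± 0.18 (adjusted p = 0.0454), which was lost without VCD_E2, VCD_E2_P4, VCD_Low_E2, VCD_Low_E2_P4 or VCD_High_PBDE_E2_P4 (adjusted p 0.0871 to 0.225). It was also lost at a gate margin of 0.25, at a mitochondrial limit of 10%, without fibroblasts of high UMI count and when cells were gated by a marker pair (adjusted p 0.0635 to 0.907). In the Fabp4 gate Cyr61 fell by 0.40 on the log2 scale (adjusted p = 0.0284), which was lost when any of VCD_Vehicle, VCD_E2, VCD_E2_P4, VCD_Low_PBDE, VCD_Low_E2 or VCD_High_PBDE_E2_P4 was left out (adjusted p 0.0621 to 0.143), and in 4 of 13 other alternatives (0.0762 to 0.280).

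**Figure D3:**
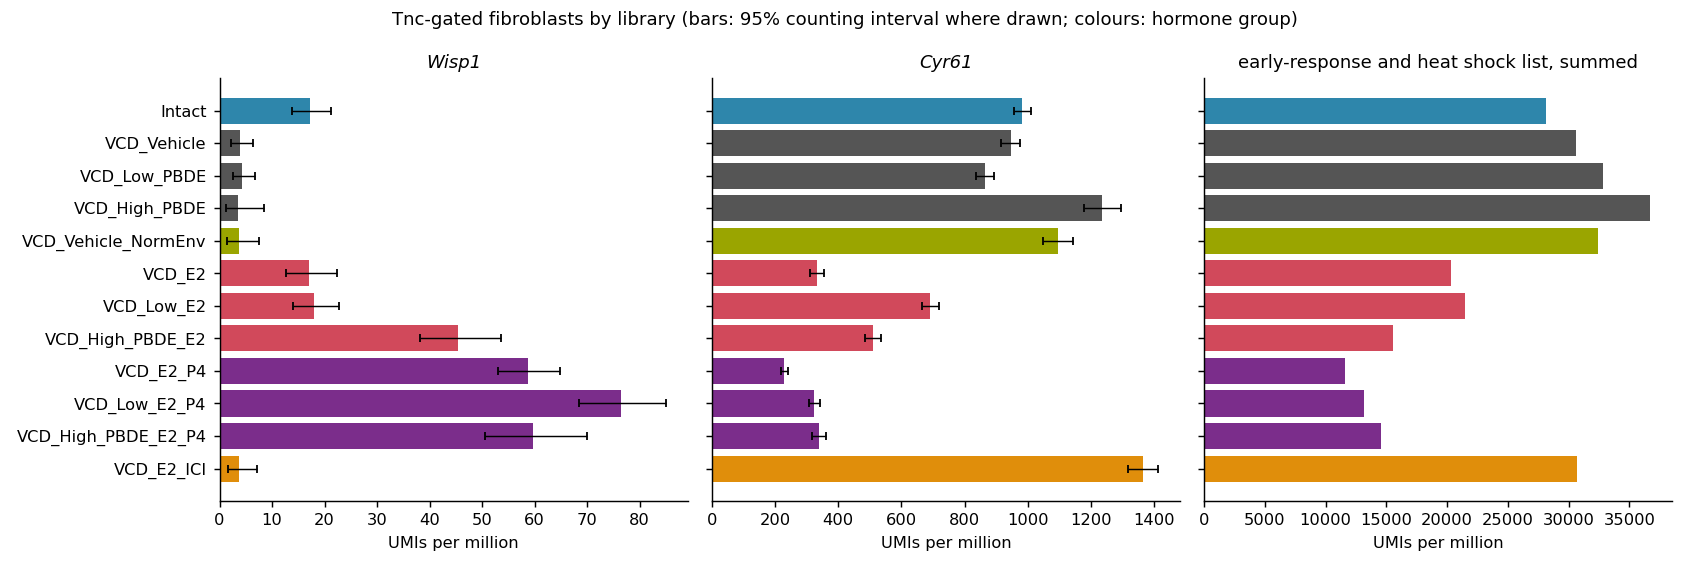
Tnc-gated fibroblasts, 1 bar per library coloured by hormone arm: CPM of Wisp1 and Cyr61 with 95% counting intervals, and of 15 early-response and heat shock genes summed. Wisp1 is at most 4.26 in the VCD libraries without hormone and in VCD_E2_ICI, and at least 17.0 with E2, while Cyr61 and the summed list run the opposite way.

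Other genes moved with Cyr61 in the Tnc gate, and their part in the result was not tested. The 15 immediate early and heat shock genes summed to 30574, 32807 and 36700 CPM without hormone and to 11595 to 21490 with it. Of these 15 genes, 14 fell and none rose (median log2 -1.05, against -0.02 for all genes, of which 31.1% passed), with Atf3, a stress-induced transcription factor, at -2.41 and Jun, an AP-1 subunit, at -1.75. In the Dpp4 gate, where Cyr61 did not pass (log2 0.51 ± 0.18, adjusted p = 0.105 by edgeR and 0.0209 by DESeq2), 2 of the 15 fell and none rose, against 11.6% of all genes passing. In the Fabp4 gate 11 fell and 1 rose, against 12.1% of all genes passing. In the Gdf10 gate, where Cyr61 did not pass (log2 -0.26, adjusted p = 0.130), 4 fell and none rose, against 4.26% of all genes passing. The list summed there to 24459 to 31621 CPM without hormone and 19349 to 23871 with it. For P4 on top of E2 in the Tnc gate, 6 of the 15 fell and none rose (median log2 -0.55), against 3.78% of all genes passing.

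The makeup of the Tnc gate also differed between arms, and its part in these results was not tested. The 5 gate markers themselves summed to 2605 to 2702 CPM without hormone and to 1692 to 2264 with it, whereas the 5 Fabp4-gate markers summed to 1199 to 1292 and 1846 to 2764. The 6 fibroblast markers were at 39874 to 43611 and 56229 to 82403. Immune markers in the gate stayed between 4.18 and 12.2 CPM in all 9 libraries, and epithelial and adipocyte markers also overlapped between the arms. The 6 endothelial markers did not, at 20.1 to 28.9 without hormone and 33.1 to 44.6 with it.

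Wisp2 passed for hormone against none in the Fabp4 gate, as lower, and narrowly in the Dpp4 gate, as higher. In the Fabp4 gate it was read at 117, 137 and 105 CPM without hormone, at 83.5, 95.7 and 38.1 with E2, and at 26.1, 41.2 and 23.5 with E2 and P4. Outside the layout, VCD_Vehicle_NormEnv, which had no hormone, gave 69.2, below VCD_E2 and VCD_Low_E2. Within the layout, the hormone libraries all lay below the libraries without hormone. The difference was 2.77-fold (log2 -1.47 ± 0.15, adjusted p = 0.000609, where 12.1% of genes passed) and passed in each alternative except E2 alone against no hormone (log2 -0.85, adjusted p = 0.0848). P4 on top of E2 gave log2 -1.25 ± 0.18 (adjusted p = 0.0341), which was lost without VCD_E2, VCD_E2_P4, VCD_Low_E2, VCD_Low_E2_P4 or VCD_High_PBDE_E2_P4 (adjusted p 0.0738 to 0.193). It was also lost at a gate margin of 1.0 and with the marker-pair gate (adjusted p 0.112 to 0.164). In that gate 0.404% of genes passed the P4 comparison.

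Other signals in the Fabp4 gate separated the arms as well, and their part in the values of Wisp2, Cyr61 and Ctgf was not tested. The 5 gate markers summed to 4985 to 6801 CPM without hormone and 7181 to 10898 with it. The 6 adipocyte markers summed to 0 to 0.457 and 0.606 to 1.45, and the 15 early-response and heat shock genes to 35444 to 44120 and 19306 to 31136.

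In the Dpp4 gate Wisp2 was read at 34.0, 11.6 and 15.7 CPM without hormone, at 70.3, 128 and 27.5 with E2, and at 69.6, 57.3 and 85.0 with E2 and P4. The arms overlapped at VCD_High_PBDE_E2, which lay below VCD_Vehicle. The difference was 3.70-fold (log2 1.89 ± 0.50, adjusted p = 0.0489, where 11.6% of genes passed), and it was lost in 7 of the 9 fits without 1 library, those without VCD_Vehicle, VCD_E2, VCD_E2_P4, VCD_Low_PBDE, VCD_Low_E2_P4, VCD_High_PBDE or VCD_High_PBDE_E2_P4 (adjusted p 0.0545 to 0.210). Dpp4-gated cells with both Cilp and Myoc, matrix genes chosen for this check after the values were seen, made up 2.17, 2.43 and 3.62% of the gate without hormone and 4.05 to 23.7% with it. They held 3.44 to 67.7% of the Wisp2 UMIs of a layout library. Without them the log2 difference was 1.57 (adjusted p = 0.0853). The call was also lost under 6 further alternatives: a gate margin of 0.25, the marker-pair gate (log2 0.80), a mitochondrial limit of 10%, the suffix term, E2 alone, and cells with shared barcodes left out (adjusted p 0.0524 to 0.345).

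The Tnc gate gave Wisp2 at 43.1, 107 and 132 CPM without hormone, at 108, 277 and 7.40 with E2, and at 88.5, 21.6 and 15.4 with E2 and P4. The arms overlapped widely and the log2 difference was -0.69 (adjusted p = 0.554). It passed as lower at a gate margin of 1.0 and with the marker-pair gate (adjusted p 4.07e-06 to 0.000469, log2 down to -3.50). The ungated fibroblasts were in no hormone test, although they held 29283 Wisp2 UMIs, against 10786, 6945, 3606 and 4080 in the Dpp4, Fabp4, Tnc and Gdf10 gates. They gave 212, 165 and 189 CPM without hormone, 203, 487 and 82.0 with E2, and 161, 144 and 172 with E2 and P4. These arms overlapped.

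**Figure D4:**
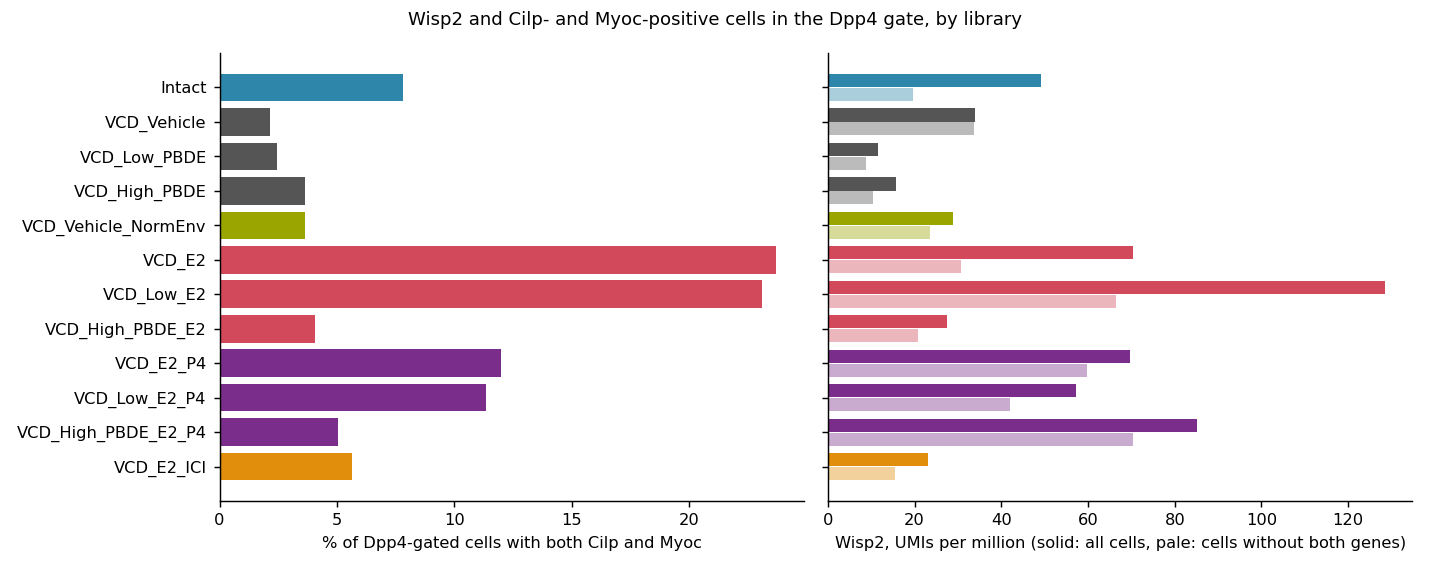
Dpp4-gated fibroblasts by library: the percent of cells with both Cilp and Myoc, and CPM of Wisp2 in all cells (solid) and in cells without both genes (pale). The share of such cells is highest in VCD_E2 (23.7%) and VCD_Low_E2 (23.1%), and Wisp2 is highest in VCD_Low_E2 (128).

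Within the 9-library layout, Ctgf in the Fabp4 gate was lowest with E2 alone. It was read at 12.1, 13.2 and 24.8 CPM without hormone, at 5.38, 5.94 and 6.75 with E2, and at 19.7, 18.3 and 15.3 with E2 and P4. The libraries with E2 alone lay below the other 6 of the layout, and the libraries with P4 fell within the range without hormone. Outside the layout, VCD_Vehicle_NormEnv, which had no hormone, gave 6.07, inside the range with E2 alone, and Intact gave 7.66. P4 on top of E2 gave a 3.03-fold rise (log2 1.60 ± 0.24, adjusted p = 0.0362), lost without VCD_E2, VCD_E2_P4, VCD_Low_E2, VCD_Low_E2_P4 or VCD_High_PBDE_E2 (adjusted p 0.0691 to 0.193). It was also lost at gate margins of 0.25 and 1.0, with the marker-pair gate, without fibroblasts of high UMI count and without cells holding both Cilp and Myoc (adjusted p 0.0910 to 0.390). E2 with or without P4 gave log2 -0.67 ± 0.20 with adjusted p = 0.0532, which passed without VCD_Vehicle or VCD_E2_P4 (0.0462 to 0.0486), with no filter on low counts (0.00908) and by DESeq2 (0.0479), and E2 alone gave log2 -1.46 with adjusted p = 0.0181. In the Tnc gate, where its level was highest, Ctgf was read at 74.3 to 109 without hormone, 68.1 to 108 with E2 and 49.0 to 150.1 with both, and the arms overlapped. The log2 difference for hormone was -0.20 (adjusted p = 0.606), but -1.39 with the marker-pair gate, where it passed (0.00463). It passed in the Dpp4 gate as higher with hormone only without VCD_High_PBDE (log2 1.10, adjusted p = 0.0429), against 0.39 with all libraries.

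Nov passed neither hormone comparison in the 4 gates as defined. In the Dpp4 gate it was read at 281, 239.9 and 303 CPM without hormone, at 318, 264 and 371 with E2, and at 200.2, 294 and 246 with E2 and P4. The arms overlapped and the log2 difference for hormone was 0.01 ± 0.12 (adjusted p = 0.972). In the Tnc gate the hormone difference was log2 -0.60 (adjusted p = 0.231), and it passed as lower at a gate margin of 1.0 (log2 -1.86) and without fibroblasts of high UMI count (adjusted p 0.000194 to 0.0202). For P4 on top of E2, Nov passed as lower in the Tnc gate at a gate margin of 1.0 (0.0190) and as higher in the Gdf10 gate with no filter on low counts (0.0196).

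Counted over the family, 6 of the 20 tests of hormone against none passed, 3 rises and 3 falls, in gates where 11.6% (Dpp4), 12.1% (Fabp4) and 31.1% (Tnc) of genes passed. In the Gdf10 gate none of 5 did by edgeR, where 4.26% of genes passed, or by DESeq2, which called 280 genes. In that gate 4 of the 5 had an unadjusted p under 0.05, as did 2163 of 10903 genes. Among these 4 was Wisp1, tested there through the hormone arms alone. Without VCD_E2_P4, Ctgf (adjusted p = 0.0279) and Wisp2 (0.0137) passed there as lower. Ctgf also passed there at a gate margin of 1.0 (0.00875) and Wisp2 with the marker-pair gate (0.0391). With no filter on low counts both passed (adjusted p = 5.17e-17 for Ctgf and 1.64e-07 for Wisp2), and Wisp1 passed as higher (0.0499). With the filter the adjusted p was 0.2135 for Ctgf and 0.209 for Wisp2, and the arms overlapped for both. The no-filter values should therefore not be read as a measure of the spread between libraries. Of the 20 tests of P4 on top of E2, 4 passed by edgeR and 4 by DESeq2. By edgeR 0, 0.404, 3.78 and 0.321% of genes passed in the Dpp4, Fabp4, Tnc and Gdf10 gates. By DESeq2 113, 185, 359 and 54 genes did. None of the 5 members passed this test in the Dpp4 gate by either tool. There 1 had an unadjusted p under 0.05, as did 1295 of 12839 genes. Both comparisons used the same 6 hormone libraries, so they are not independent of each other.

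**Figure D5:**
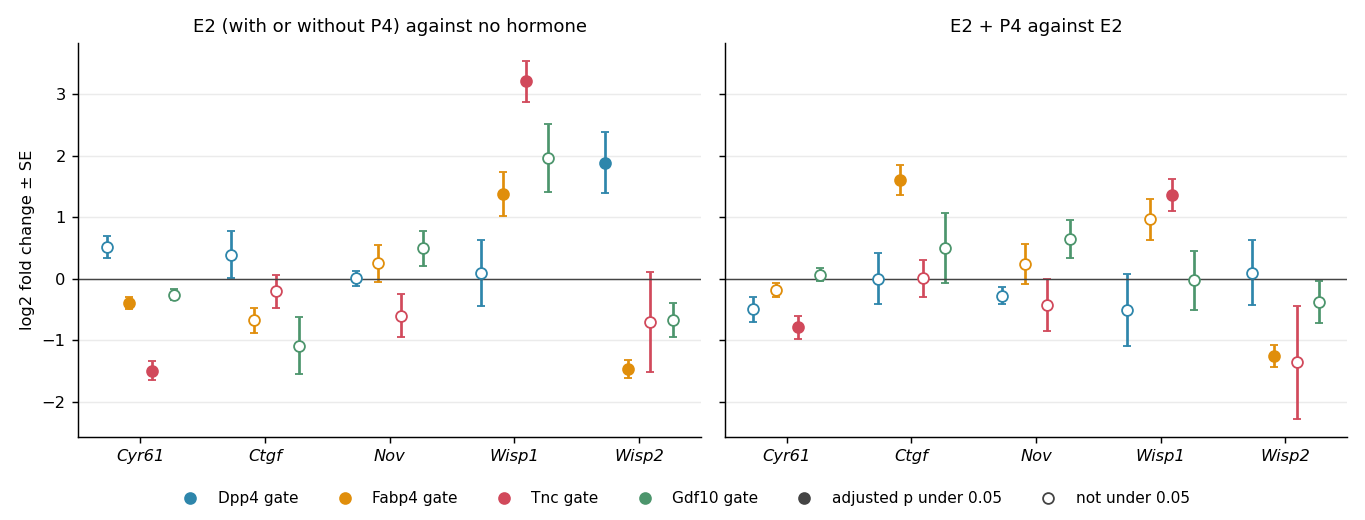
Log2 fold change ± SE of the 5 CCN genes in each fibroblast gate, for E2 with or without P4 against no hormone (left) and for E2 with P4 against E2 (right), 9 libraries; filled points have an adjusted p under 0.05. Wisp1 (3.20) and Cyr61 (-1.49) in the Tnc gate and Wisp2 (-1.47) in the Fabp4 gate stand farthest from 0 for their errors.

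The 3 libraries outside the layout have values and no test. VCD_E2_ICI, given E2 with the receptor antagonist, had 3.74 CPM of Wisp1 in the Tnc gate (95% counting interval 1.71 to 7.09) against 17.0 in VCD_E2 (12.7 to 22.3), which is within the range of the libraries without hormone. Its Cyr61 in the Tnc gate was 1364 against 333 in VCD_E2, above all other libraries. Its Nov in the Dpp4 gate was 509, also the highest of the 12, and its Wisp2 there was 23.04 against 70.3. In the Fabp4 gate its Wisp2 was 74.5, within the range with E2 alone (38.1 to 95.7). This lay below each layout library without hormone (104.6 to 136.9). Its summed early-response list in the Tnc gate was 30687, inside the range without hormone. The Intact library, with its own ovarian hormones, had 17.3 of Wisp1 in the Tnc gate, near VCD_E2, and 982 of Cyr61, near the libraries without hormone. VCD_Vehicle_NormEnv stood with VCD_Vehicle for Wisp1 (3.69) and Cyr61 (1095) in the Tnc gate. It stood apart from VCD_Vehicle in the Fabp4 gate, with Ctgf at 6.07 against 12.1 and Wisp2 at 69.2 against 117. Both values lay within the range of the libraries given E2 alone, and this Wisp2 lay below each layout library without hormone.

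PBDE was compared over the 4 gates summed, with hormone as a term. All layout libraries without PBDE carried 1 library name suffix and all with high PBDE the other. High PBDE against none therefore coincides with the suffix. Of the low PBDE libraries, VCD_Low_PBDE carried the suffix of those without PBDE, and VCD_Low_E2 and VCD_Low_E2_P4 the other. None of the 10 member tests passed by edgeR, with 0% of 14092 genes passing for low PBDE and 0.483% for high PBDE. Of these 10, 2 had an unadjusted p under 0.05, both for high PBDE, where 3012 of 14092 genes did. By DESeq2 1 of the 10 passed, where 681 genes did for high PBDE and 11 for low PBDE. That one was Cyr61 under high PBDE, with log2 0.46 ± 0.14 and adjusted p = 0.117 by edgeR and 0.0218 by DESeq2, and by edgeR it passed without VCD_High_PBDE (adjusted p = 0.0477). For low PBDE the member differences ran from log2 -0.28 for Wisp1 to 0.24 for Nov.

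The effect of E2 with or without P4 was also compared between gates, as its value in 1 gate minus its mean in the other 3. Each gate is part of the mean set against the others, so the tests of a gene are not independent. Of the 20 member tests, 7 passed by edgeR, where 18.1% of 13382 genes passed in the Dpp4 gate, 3.54% in the Fabp4 gate, 25.6% in the Tnc gate and 5.46% in the Gdf10 gate. The effect on Cyr61 was more positive in the Dpp4 gate than elsewhere (log2 1.23 ± 0.16) and more negative in the Tnc gate (-1.44 ± 0.15), and both differences held without any 1 library. For Wisp1 it was more positive in the Tnc gate (2.02 ± 0.46, lost without VCD_Vehicle at adjusted p = 0.0646 and with the marker-pair gate at 0.891), and for Wisp2 in the Dpp4 gate (2.73 ± 0.52).

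The genes around the family were read in the same way. Among YAP and TAZ targets other than Cyr61 and Ctgf, 16 of 19 were tested for hormone against none in the Tnc gate, of which 4 rose and 2 fell, where 31.1% of all genes passed. Dock5, a Rac activator, rose by log2 1.59 and Ccdc80, a matrix protein, by 0.79, while Igfbp3, which binds insulin-like growth factors, was at -4.21 and Asap1, a regulator of the actin cytoskeleton, at -0.53. The same list in the Dpp4 gate, where 11.6% of all genes passed, had 1 of 18 higher (Ccdc80, log2 1.62) and 2 lower (Gadd45a, a stress gene, at -1.04, and Crim1 at -0.49). Of the Hippo kinases and TEAD factors, 14 were tested in the Tnc gate, with Tead1 (0.63) higher and Vgll4, a TEAD competitor (-0.68), and Sav1 (-0.37) lower.

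Of 13 receptors of CCN proteins, 10 were tested for hormone against none in the Tnc gate, where 31.1% of all genes passed. Of these, 7 rose and 1 fell (median log2 0.50, against -0.02 for all genes). Fgfr2 rose by log2 1.36 and Itgav, the alpha subunit of the vitronectin-type integrins, by 1.35, and Sdc4, a heparan sulphate proteoglycan, was at -0.83. In the other gates at most 1 receptor passed, Itgav in the Fabp4 gate (log2 0.68), where 11.6% (Dpp4), 12.1% (Fabp4) and 4.26% (Gdf10) of all genes passed. Of the TGF-beta and SRF list, 2 of 10 rose and 2 fell in the Tnc gate, with Tgfbr2 at 0.57 and Smad2 at 0.48 above, and Srf, which drives early-response genes, at -1.09 and Tgfbr1 at -0.47 below.

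Wnt target genes were highest in the Tnc gate, where Wisp1 was. Of the 11 listed 7 were tested between gates, and these 7 were higher there than in the other gates (median log2 2.82, where 56.7% of all genes passed), led by Lgr5 (5.18), an R-spondin receptor, and Tcf7 (4.84), a Wnt transcription factor. With hormone, where 31.1% of all genes passed, 1 of 6 rose (Tcf7, log2 0.87) and 2 fell, Lgr5 at -4.63 and Axin2, a feedback inhibitor of Wnt signalling, at -1.33. For PBDE none of the genes of these lists passed by edgeR.

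The genes whose levels ran most like each member were sought over 48 sums, 4 gates in each of 12 libraries, which share libraries and depth. For Nov they were Dpp4 (Pearson r = 0.961), Pi16 (0.955) and Slco3a1 (0.950), the first 2 being genes of the gate itself. For Wisp1 they were Cacna1c (0.921), Nxn (0.888) and Hs2st1 (0.888), and for Ctgf Nkd2 (0.832), Ramp1 (0.825) and Sfrp1 (0.792). For Cyr61 they included Cndp2 (0.787) and Anp32a (0.776). Wisp2 had the least close partners, among them Lgals3 (0.699) and Ntrk2 (0.671). Among the members themselves the closest pair was Ctgf and Wisp1 (r = 0.53) and the most opposed Nov and Wisp1 (r = -0.52).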

How the data were processed

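The authors deposited unnormalised UMI counts per gene and barcode for 12 libraries, made with Cell Ranger 3.1.0 on mm10. Barcodes were dropped below 500 genes or 1000 UMIs or above 5% mitochondrial UMIs. Fibroblasts had no UMI of 6 epithelial, immune, endothelial and pericyte genes and at least 0.5% of UMIs from 6 fibroblast markers. Each took the gate with the highest mean z-score of 5 markers where that lay above 0 and 0.5 above the next. Counts were summed per library and gate. No doublet caller was run, and leaving out fibroblasts above the 96th percentile of UMIs stood in for one. Genes with at least 10 counts in at least 3 sums were tested with edgeR 4.0.16 (TMM, quasi-likelihood, threshold 0.05, Benjamini-Hochberg over all genes) in R 4.3.3, with DESeq2 1.42.0 as an alternative. Hormone and PBDE were additive terms over 9 libraries, so PBDE level stands in for a replicate and p-values measure the spread between libraries, which may be technical. Gate comparisons had the library as a block. The scripts were tested on simulated data. Levels are UMIs scaled to 1000000 per sum (CPM) with exact Poisson 95% intervals, which cover counting error only.

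Named genes were all members, up to 2 risers and 2 fallers per fixed list among genes that passed, and the 3 genes most like each member, not all of which are reported here. The members and lists were chosen with earlier results of these data known. Alternatives were other margins and filters, a pair gate (both genes of a marker pair), the suffix of the library names, single libraries left out, and, chosen after seeing the data, cells with shared barcodes or with both Cilp and Myoc left out.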

Additional observations from a re-analysis of the deposited data

Results flagged for a closer look

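Whether the effect of hormone differed between gates was tested directly, as the effect of E2 with or without P4 in one gate minus its mean in the other 3, by edgeR with Benjamini-Hochberg adjustment over all genes. This difference passed for 7 of the 20 member tests. Of 13382 genes, 18.1, 3.54, 25.6 and 5.46% passed in the Dpp4, Fabp4, Tnc and Gdf10 gates. Each gate is part of the mean set against the others, so the tests of a gene are not independent.

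In the Dpp4 gate the effect was more positive than elsewhere by log2 1.23 ± 0.16 for Cyr61 (adjusted p = 2.79e-05) and by 2.73 ± 0.52 for Wisp2 (adjusted p = 0.00100), and both held without any 1 library. It was more positive by 1.20 ± 0.30 for Ctgf (adjusted p = 0.00886), which was lost without VCD_Low_PBDE (adjusted p = 0.128). For Wisp1 it was -2.06 ± 0.55 (adjusted p = 0.0132), at a level of at most 0.842 CPM in that gate. The Wisp1 call was lost without VCD_Vehicle (adjusted p = 0.0825), at a gate margin of 1.0, without fibroblasts of high UMI count and with the pair gate (0.0504 to 0.646). Within the Dpp4 gate itself, hormone against none did not pass by edgeR for Cyr61 (log2 0.51, adjusted p = 0.105), Ctgf (0.39, 0.535) or Wisp1 (0.098, 0.926). Wisp2 passed there narrowly (log2 1.89, adjusted p = 0.0489). A difference between gates can therefore come from the other gates.

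In the Tnc gate the difference was -1.44 ± 0.15 for Cyr61 (adjusted p = 1.06e-06), which held without any 1 library. It was 2.02 ± 0.46 for Wisp1 (adjusted p = 0.00261), lost without VCD_Vehicle (adjusted p = 0.0646) and with the pair gate (0.891). For Nov it was -0.86 ± 0.30 (adjusted p = 0.0414), while hormone against none within the Tnc gate did not pass (log2 -0.60, adjusted p = 0.231). The Nov difference between gates was lost without VCD_E2_P4, VCD_Low_PBDE, VCD_Low_E2, VCD_Low_E2_P4, VCD_High_PBDE or VCD_High_PBDE_E2_P4 (adjusted p 0.0598 to 0.625). It was also lost at a gate margin of 0.25 and with the pair gate (0.0774 to 0.234).

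Of the 13 differences that did not pass, 6 did so under a gate definition, cell or count filter other than the one reported: Nov and Ctgf in the Gdf10 gate, Nov in the Dpp4 gate, Wisp2 in the Fabp4 gate, and Ctgf and Wisp2 in the Tnc gate.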

How the results depend on the processing

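Of 1847 values recomputed under an alternative, 1587 kept direction and call, 98 lost the call, 52 gained one, 4 reversed and 106 moved. Of 30 member results that passed, 14 passed in every alternative. No paired analysis was possible because each group held 1 library and no replicate numbers; PBDE level or library was a term of the fits instead. The 6 member calls for hormone against none became 10 with no filter on low counts, 3 with the suffix term, 3 with E2 alone and 3 to 6 without single libraries. The 4 calls for P4 on top of E2 became 2 at a gate margin of 0.25, 1 with the pair gate (Wisp2 in the Tnc gate, which is none of the 4), 2 without fibroblasts of high UMI count and 0 to 4 without single libraries. The 0 calls for PBDE became 1 with DESeq2 and 0 to 1 without single libraries. Without single libraries, calls between gates (13) ranged from 12 to 14 and differences of the hormone effect (7) from 5 to 8; at a gate margin of 1.0 they were 16 and 10. The pair gate reversed 4 values, to log2 -0.87 for the Ctgf hormone effect in the Tnc gate against the others, 1.09 for Wisp2 in the Dpp4 gate, -0.57 for Ctgf in the Gdf10 gate and -1.36 for Wisp2 in the Tnc gate; its Tnc gate held 404 cells, and the cause was not tested. Thinning to 5000 UMIs lowered the share of cells with a molecule to 76.5% for Cyr61 (Fabp4 gate), 19.9% for Ctgf (Tnc), 60.6% for Nov (Dpp4), 7.97% for Wisp1 (Tnc) and 19.3% for Wisp2 (Gdf10). A limit of 1% on fibroblast markers raised the immune level to 27.4 CPM for Cyr61, 4.29 for Nov and 4.01 for Wisp2.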

Other observations

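Finer groups of fibroblasts, defined after seeing the data by a UMI of both genes of a pair, showed where Wisp2 and Ctgf were concentrated. The 2702 cells with both Cilp and Myoc gave 368 CPM of Wisp2 and 109 of Ctgf, and 46.4% of them lay outside all 4 gates. The 872 cells with both Pgr, the progesterone receptor, and Greb1, an estrogen-induced gene, gave 498 of Wisp2, with 61.2% of them in the Dpp4 gate. The 3059 cells with both Krtdap and Dmkn lay almost entirely in the Dpp4 gate (96.4%) and gave 304 of Nov and 26.8 of Wisp2. These pairs also select deeper cells, with median UMI counts of 21025, 25041 and 19454.

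Outside the fibroblasts, the 155 luminal epithelial cells gave 93.7 CPM of Wisp2 (95% counting interval 84.7 to 103) and 4.00 of Ctgf. Most of this Wisp2 came from the libraries given E2 alone, with 108 UMIs in VCD_E2, 165 in VCD_Low_E2 and 87 in VCD_High_PBDE_E2 of 398 in all. These libraries held 42, 21 and 7 luminal cells, of which 12, 13 and 4 had a Wisp2 UMI. The levels there were 139.5, 252 and 168 CPM, and the other libraries gave at most 89.9 CPM. The interval covers counting error only, and the difference between libraries was not tested. The 9 basal epithelial cells gave 448 of Ctgf from 84 UMIs. Wisp1 gave 0 UMIs in the luminal cells, which allows up to 0.868 CPM by the exact 95% interval.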
